A study of Mus musculus with 63 samples.

Results

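Genes of the interferon response and of MHC class I antigen presentation were followed through 63 RNA-sequencing libraries of mouse small intestinal tumours. The set was chosen by gene name and by a mean of at least 10 normalised counts. It comprised 41 names, of which *Rigi* is the newer symbol of *Ddx58*. The table uses *Ddx58*, so 40 genes were measured out of 24766 in the table, and all 40 had the required mean, as did 16489 genes of the table. By role they were 4 sensors of foreign nucleic acid, 5 transcription factors or co-activators, 14 antiviral effectors, 5 chemokines and guanylate-binding proteins (GBPs), 3 subunits of the immunoproteasome, 3 genes of peptide loading and 6 class I molecules.

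All tumours came from 2 C57BL/6 mice, 1 female and 1 male, of the genotype labelled Apchet (1 conditional *Apc* allele removed by Villin-creERT2, together with the Confetti colour reporter). Villin drives the recombinase in intestinal epithelium, so other cells of a tumour kept both *Apc* alleles. Both mice received 4 mg tamoxifen at an age above 8 weeks and the mutagen ENU at 200 mg per kg 10 days later, so every group carried the same allele and both agents, and neither normal tissue nor untreated tumours were part of the comparison. In 20 heterotypic tumours, 10 per mouse, regions of different colour were cut apart into a larger (major) and a smaller (minor) clone, and each clone was a library. Another 23 tumours carry no clone letter and were sequenced whole (10 female, 13 male). They are called undivided here. The series design gives 20 monoclonal tumours, so up to 3 of the 23 may not belong to them, and which ones the labels do not say. The undivided tumours are numbered 1 to 10 in each mouse, with 15, 17 and 18 in addition in the male mouse. Undivided tumours came from the segments labelled SI10 (12 tumours) and SI20 (11 tumours). Divided tumours came from SI10, SI20 and, in 2 tumours of the female mouse, SI30. The clones of tumour 22 of the female mouse carried different segment labels (major SI20, minor SI10). Libraries are named here by mouse (F or M) and tumour number. As 1 mouse represents each sex, mouse and sex cannot be told apart, and p-values over tumours measure the spread between tumours of these 2 animals.

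The normalised counts added up to between 2.61e+07 and 4.59e+07 per library. Such totals follow scaling and are not depths, so no counting interval is given, and the spread between tumours sets the precision. Log2 values of any pair of libraries correlated by 0.844 to 0.975, so no deposit was a duplicate. *Epcam*, the defining marker of epithelium, was between 31001 and 74424 normalised counts in all libraries, and T cell and myeloid markers were measurable in all of them (*Cd3e* 4.89 to 214, *Csf1r* 64.1 to 1507). The tumours are therefore mixtures of cells, and in such bulk samples fewer cells of a type and less RNA per cell cannot be told apart.

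Interferons are secreted proteins that bind cell-surface receptors and switch on many genes. Type I and III interferons act through a complex of STAT proteins and IRF9 on the interferon-stimulated response element (ISRE), and interferon-gamma acts through STAT dimers on the gamma-activated site (GAS). Many induced genes block viral replication, while others, above all those induced by interferon-gamma, raise the presentation of peptides on MHC class I. In that pathway the immunoproteasome cuts proteins into peptides, the TAP transporter carries them into the endoplasmic reticulum, and a class I heavy chain bound to beta-2-microglobulin takes them to the surface, where cytotoxic T cells read them. In the intestine both epithelium and immune cells respond to interferons.

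Promoter sequences are shown first, as they hold the elements on which interferon signals act. In the 250 bases before the annotated start (Gencode M39, GRCm39), both strands were searched for the ISRE core, spelled GAAANNGAAA, and for the GAS, spelled TTCNNNGAA, where N is any base. The ISRE core was found in 13 of 40 genes (32.5%), against 3.32% of 21770 protein-coding promoters of the same length and 3.15% of the 14156 whose genes had a mean of at least 10 normalised counts. It was present in 9 of 14 antiviral effectors, in 1 of 6 class I molecules, and in 0 of 3 immunoproteasome and 0 of 3 peptide loading genes. The GAS was found in 7 of 40 genes (17.5%), against 7.70% of all protein-coding promoters. *Zbp1* and *Bst2* held both motifs, and in both genes they overlapped. A match describes letters in this window, and a window without one says nothing about the factor. The examples show an antiviral effector with overlapping cores (*Isg15*), a second with 2 separate cores (*Ifit3*), a sensor with both motifs (*Zbp1*), a chemokine (*Cxcl10*), the only class I molecule with the core (*H2-Q2*), and the shared light chain without either motif (*B2m*). Each runs 5′ to 3′ on the strand of its gene, ends at the base before the start, and has motif matches on either strand in capitals.
Isg15: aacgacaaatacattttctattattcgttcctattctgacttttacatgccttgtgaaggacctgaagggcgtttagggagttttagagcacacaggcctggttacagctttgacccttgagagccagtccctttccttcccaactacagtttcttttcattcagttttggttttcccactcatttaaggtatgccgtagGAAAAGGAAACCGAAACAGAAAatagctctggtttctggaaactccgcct
Ifit3: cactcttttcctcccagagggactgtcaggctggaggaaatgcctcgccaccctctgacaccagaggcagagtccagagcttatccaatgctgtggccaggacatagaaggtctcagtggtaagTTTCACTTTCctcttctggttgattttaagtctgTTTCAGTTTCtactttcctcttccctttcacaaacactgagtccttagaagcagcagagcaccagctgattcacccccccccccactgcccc
Zbp1: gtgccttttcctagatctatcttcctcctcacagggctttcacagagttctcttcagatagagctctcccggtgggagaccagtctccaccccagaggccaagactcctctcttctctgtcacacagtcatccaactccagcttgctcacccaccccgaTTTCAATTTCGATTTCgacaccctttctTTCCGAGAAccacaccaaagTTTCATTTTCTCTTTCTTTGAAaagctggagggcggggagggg
Cxcl10: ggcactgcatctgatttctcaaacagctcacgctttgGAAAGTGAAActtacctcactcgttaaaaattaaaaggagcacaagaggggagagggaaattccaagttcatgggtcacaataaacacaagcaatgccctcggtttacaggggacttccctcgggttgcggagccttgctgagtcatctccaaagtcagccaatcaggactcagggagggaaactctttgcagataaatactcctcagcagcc
H2-Q2: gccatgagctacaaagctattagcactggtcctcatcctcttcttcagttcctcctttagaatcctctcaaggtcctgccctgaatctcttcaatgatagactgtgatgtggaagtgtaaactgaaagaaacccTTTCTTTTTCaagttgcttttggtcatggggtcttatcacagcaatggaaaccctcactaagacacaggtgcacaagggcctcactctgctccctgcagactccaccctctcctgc
B2m: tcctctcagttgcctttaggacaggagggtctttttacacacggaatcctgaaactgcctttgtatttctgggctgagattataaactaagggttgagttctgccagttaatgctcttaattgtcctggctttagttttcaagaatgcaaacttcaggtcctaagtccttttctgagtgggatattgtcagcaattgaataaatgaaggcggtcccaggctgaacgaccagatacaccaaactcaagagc
Their positions on GRCm39 were chr4:156285304-156285553, minus strand for *Isg15*, chr19:34560649-34560898, plus strand for *Ifit3*, chr2:173060725-173060974, minus strand for *Zbp1*, chr5:92496749-92496998, minus strand for *Cxcl10*, chr17:35560837-35561086, plus strand for *H2-Q2* and chr2:121977707-121977956, plus strand for *B2m*. The cores of *Isg15* began 50, 44 and 38 bases before the start and those of *Ifit3* 126 and 92 bases before it. In *Zbp1* cores began 91, 85, 43 and 37 bases before the start and GAS matches 63 and 30 bases before it, while the core of *Cxcl10* lay at 213 and that of *H2-Q2* at 116 bases.

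Several genes are members of families whose reads are hard to assign. The share of a gene's 50-base stretches that also occur in transcripts of other genes was 31.7% for *Ifit3* (nearly all with *Ifit3b*), 25.7% for *Rtp4*, 16.8% for *Tapbp*, 15.7% for *Oas1a*, 453 of 3029 stretches for *H2-Q1*, 12.6% for *H2-D1*, 12.2% for *H2-Q2*, 11.5% for *Gbp7* and 11.3% for *H2-K1*. For these 9 genes the estimated counts depend on how the authors' counting divided shared reads. In 16 genes, *B2m*, *Irf1*, *Psmb9* and *Psmb10* among them, no such stretch was shared. *Psmb8*, *Psmb9*, *Tap1* and *Tap2* lie side by side on chromosome 17 (34400960 to 34435829), where *Psmb9* and *Tap1* overlap on opposite strands. The library kit keeps the strand, and whether the counting used it is not given in the sources used here.

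Between libraries the genes differed in how widely they varied. Over the 63 libraries, the standard deviation of log2(normalised count + 1) had a median of 0.85 among the 40 genes and 0.47 among all genes. It was highest in *Oas2* (1.96, above 97.6% of genes), *Cxcl9* (1.88, 97.1%) and *Ifit3* (1.75, 96.1%), and lowest in *Irf9* (0.35, 33.7%), *H2-D1* (0.36, 34.7%) and *Tapbp* (0.38, 38.7%). *Isg15* encodes a ubiquitin-like protein that is joined to other proteins in infected cells. Its normalised counts (lowest, median and highest) were 36.2, 122 and 4882 in undivided tumours, 18.5, 67.3 and 1285 in major clones and 20.9, 64.0 and 3846 in minor clones, so that its highest library was 264 times its lowest. *Ifit1*, whose product binds viral RNA, had 46.7, 355 and 6069 in undivided tumours, 38.2, 169 and 2813 in major and 33.9, 156 and 9487 in minor clones. In contrast *H2-D1*, a classical class I heavy chain, spanned only 3.42-fold over all libraries. The groups overlapped in each of these genes. *Oas2*, which makes the nucleotide signal that activates RNase L, was listed at 0 in 6 libraries.

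A few libraries carried most of the high values. A library was taken as high for a gene where its log2 value lay at least 2 above the median of the 63 libraries. The 7 libraries high for 5 or more of the 40 genes held 78 of the 113 such values. They were picked by that count, so their large share follows in part from the choice. The same count was not made over all genes, so whether these libraries also stood out in other genes is not shown. Undivided tumour M2 was high for 24 of the 40 genes, the minor clone M29 for 15 and undivided tumour M5 for 13. The major clone M27, the minor clone M20 and the minor clone F20 were each high for 7 genes and the major clone M28 for 5, while 36 libraries were high for none. The libraries differed in which roles were high. In M2, 13 of 14 antiviral effectors were high, with *Isg15* at 4882 and *Ifit1* at 6069. In the minor clone M29, 11 of 14 antiviral effectors were high (*Isg15* 3846, *Ifit1* 9487) and 0 of 6 class I molecules were. In M5, 6 antiviral effectors and 4 of 6 class I molecules were high, and *B2m* (66123) and *H2-Q2* (30596) had their highest values of all libraries there. In the minor clone F20, 4 of 5 chemokines and GBPs were high, with *Cxcl9* at 2101 and *Gbp2* at 2488. Cell markers moved with some of these libraries. By summed level among 63 libraries, M5 ranked 1 for T and cytotoxic cell markers and 1 for enterocyte markers. For the same 2 lists M2 ranked 5 and 3, M29 59 and 35, and F20 22 and 63. For myeloid markers F20 ranked 3, M2 31, M5 50 and M29 53. For endothelial and fibroblast markers M2 ranked 63 and 59, M5 62 and 61, M29 15 and 54, and F20 8 and 12. Their part in the high values was not tested.

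**Figure D1:**
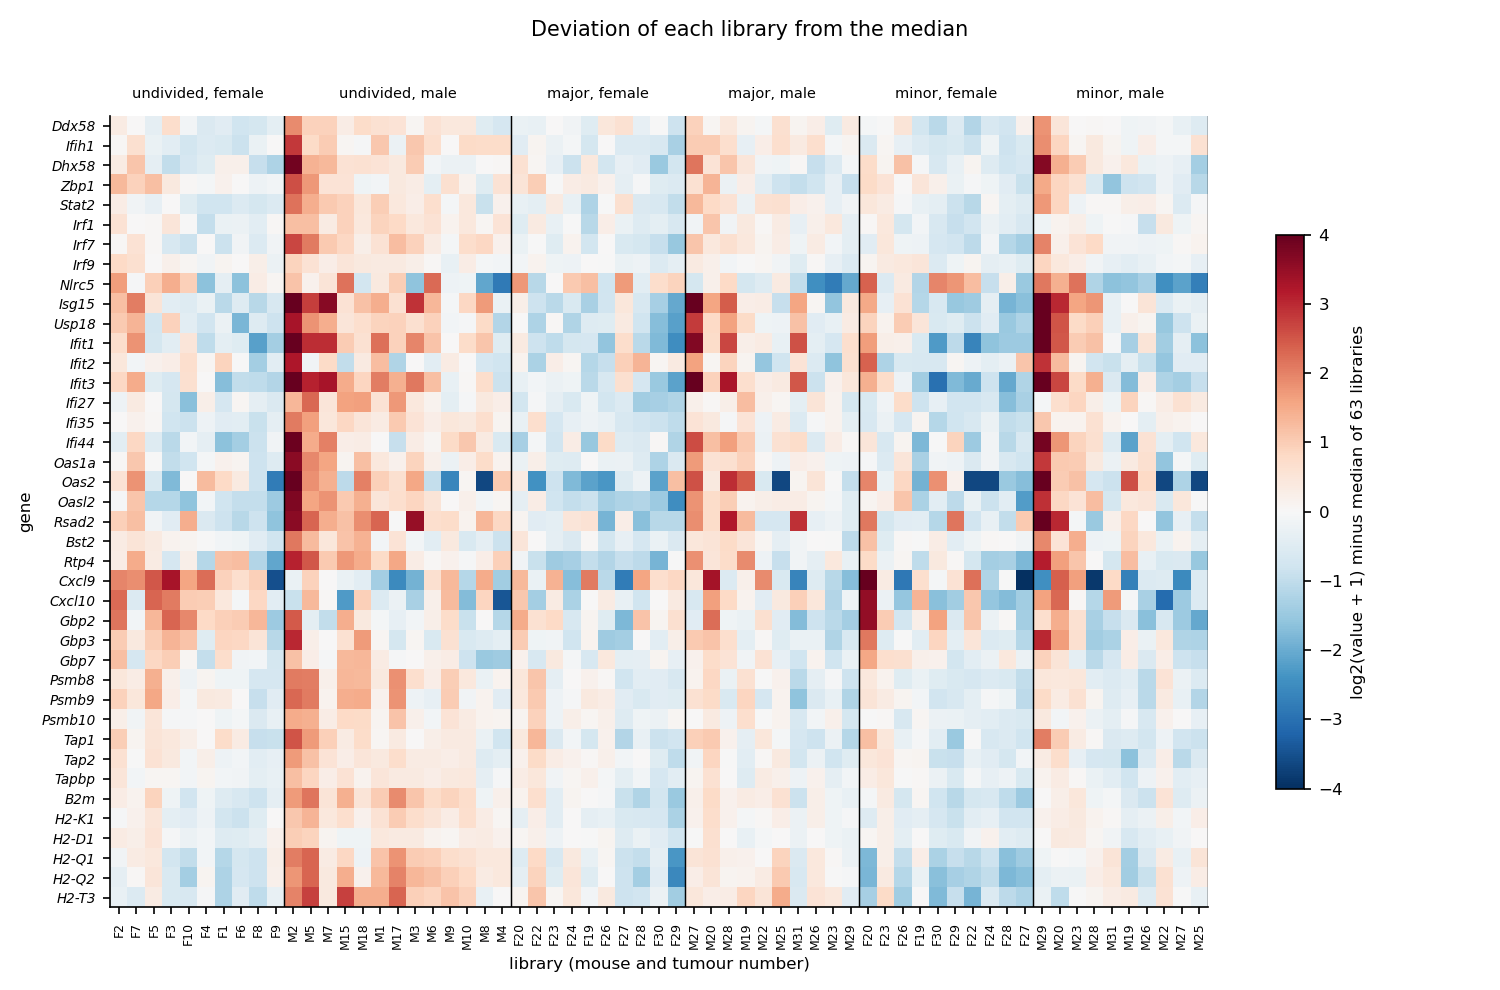
Deviation of each of 63 libraries (columns, by class and mouse, ordered by mean deviation) from the median of all libraries for 40 genes (rows, by role), in log2(normalised count + 1), with colours ending at -4 and 4. Undivided M2 and minor clone M29 are dark red across the antiviral effectors, undivided M5 also across the class I molecules, and minor clone F20 at the chemokines and GBPs.

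Within the undivided tumours the genes varied together, after the mean of each mouse was removed. Over 780 gene pairs and 23 tumours the median Pearson correlation was 0.52, against -0.002 over pairs of all genes, and 756 pairs were above 0. It was 0.70 among the 12 genes of the class I pathway (66 of 66 pairs above 0), 0.63 among the 23 sensors, transcription factors and antiviral effectors, 0.50 between these groups, and 0.23 between chemokines or GBPs and the class I pathway. By Spearman rho, which uses ranks, the median was 0.41 over all pairs and 0.68 within the class I pathway. It was 0.46 among the 23 genes, 0.42 between these groups and 0.25 between chemokines or GBPs and the class I pathway. In the 20 divided tumours, with the mean of both clones as 1 value, the median Pearson correlations were 0.38 over all pairs, 0.65 within the class I pathway, 0.45 within the antiviral group, 0.25 between the class I pathway and the antiviral group, and 0.39 between chemokines or GBPs and the class I pathway. The points of each correlation share their libraries and scaling, and some their reads, as in *H2-Q1* and *H2-Q2* (0.95). *B2m* was closest to *Psmb8* in undivided tumours (0.89) and *Psmb8* to *Psmb9* (0.93).

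The study compared monoclonal tumours with clones that share a tumour with another clone, and the undivided tumours are the nearest group to the first, with the mismatch in number given above. Between undivided tumours and minor clones, 9 of the 40 genes had a limma adjusted p under 0.05 (Benjamini-Hochberg over all 16491 genes tested), against 3.70% of all genes, and all 9 were higher in undivided tumours, as were 2.27% of all genes. They were 5 class I molecules (*H2-Q2*, *H2-T3*, *H2-Q1*, *B2m* and *H2-K1*), the immunoproteasome subunits *Psmb8* and *Psmb10*, the peptide transporter subunit *Tap2* and the transcription factor *Irf1*. Of the 40 genes, 39 had a higher mean in undivided tumours, with a median log2 difference of 0.45 against -0.01 over all genes. Libraries were brought to equal sums as an alternative, which moved the median of all genes to -0.11 and that of the 40 genes to 0.36, with 37 of 40 higher. That setting called 8 of the 40 genes, all higher, and lowered the share of all calls that were higher in undivided tumours from 61.5% to 36.7%. Log2 differences are on the log2(normalised count + 1) scale throughout, which understates low genes, and the mouse is a term of the fit.

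*H2-Q2* (ENSMUSG00000091705, chr17:35561087-35566181, plus strand), a class I molecule of the Q region, had 2348, 7921 and 30596 normalised counts in undivided tumours (lowest, median and highest) and 1711, 3924 and 9195 in minor clones. The ranges overlapped, and the highest values of all libraries were in undivided tumours of the male mouse. The log2 difference was 1.02 (standard error 0.20, limma adjusted p = 0.00904). *H2-T3* encodes the thymus leukaemia antigen, a class I molecule of intestinal epithelium, and had 369, 1109.6 and 5868 in undivided tumours and 242, 667 and 1492 in minor clones. Its difference was 0.93 (standard error 0.23, limma adjusted p = 0.0188), with overlapping groups. *B2m* (ENSMUSG00000060802, chr2:121977957-121983594, plus strand), the light chain of all class I complexes, had 8570.1, 21839 and 66123 in undivided tumours and 5499, 11758 and 21964 in minor clones. The groups overlapped, with the highest undivided tumours above every minor clone, and the difference was 0.77 (standard error 0.18, limma adjusted p = 0.0152). *H2-Q1* differed by 0.83 (standard error 0.19, limma adjusted p = 0.0158) and the classical heavy chain *H2-K1* by 0.39 (standard error 0.11, limma adjusted p = 0.0324). *H2-D1*, the other classical heavy chain, had a log2 difference of 0.27 (limma adjusted p = 0.118) and did not pass.

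*Psmb8*, a catalytic subunit that replaces its constitutive counterpart in the immunoproteasome, had 616, 1217 and 4228 normalised counts in undivided tumours and 470.2, 723 and 1438 in minor clones. Its difference was 0.76 (standard error 0.19, limma adjusted p = 0.0206), and that of *Psmb10*, another such subunit, 0.46 (standard error 0.12, limma adjusted p = 0.0239). The third subunit, *Psmb9*, had a difference of 0.67 (limma adjusted p = 0.0766). *Tap2* and *Tap1* form the peptide transporter. *Tap2* differed by 0.59 (standard error 0.17, limma adjusted p = 0.0407), while *Tap1* had 0.47 (limma adjusted p = 0.255) and *Tapbp*, which bridges the transporter to class I molecules, 0.34 (limma adjusted p = 0.0617). In all, 8 of the 12 class I pathway genes passed, with a median log2 difference of 0.63.

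*Irf1*, a transcription factor induced by interferon-gamma that acts on class I genes, had 959, 2497 and 4328 normalised counts in undivided tumours and 976, 1663 and 2477 in minor clones, and differed by 0.51 (standard error 0.12, limma adjusted p = 0.0158). Of the 23 sensors, transcription factors and antiviral effectors, 1 passed, *Irf1* itself, and their median log2 difference was 0.34. The difference was 0.45 for *Irf7*, the main amplifier of type I interferon, 0.14 for *Stat2*, the STAT protein of the ISRE complex, and 0.29 for *Nlrc5*, the co-activator of class I genes. Among sensors and effectors it was 0.56 for *Zbp1*, 0.62 for *Isg15*, 0.75 for *Ifit1*, 0.37 for *Ifi27* and -0.06 for *Bst2*. The standard error was 0.44 for *Isg15* and 0.45 for *Ifit1*, against 0.18 for *B2m*. Of chemokines and GBPs, *Cxcl10*, which draws in T cells, had 0.45 and *Gbp2*, a GTPase against intracellular pathogens, 0.63, and 0 of 5 passed (0 also at an unadjusted p under 0.05).

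**Figure D2:**
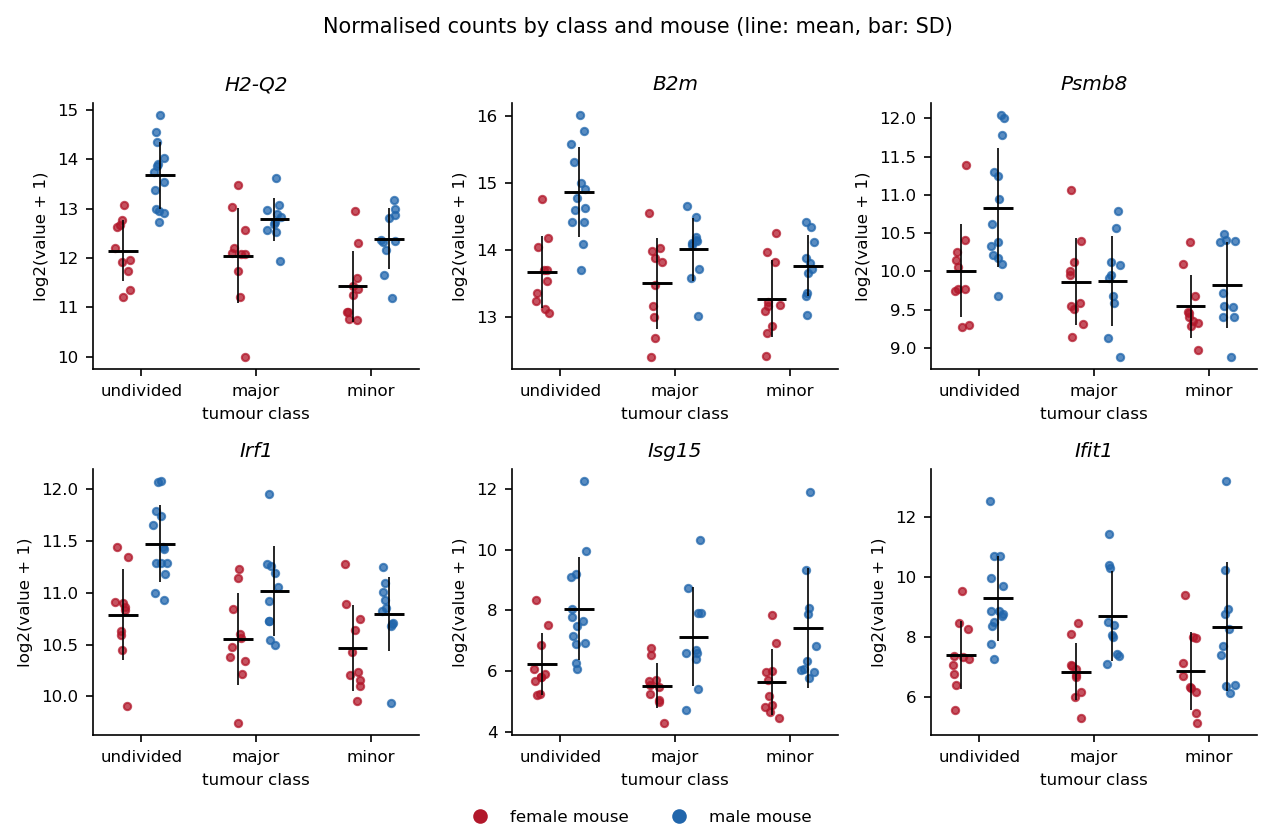
Normalised counts of 6 genes on a log2(value + 1) scale by tumour class (points, single libraries; red, female mouse; blue, male mouse; lines, mean; bars, SD). Male undivided tumours sit highest for H2-Q2 and B2m, and single libraries of the male mouse stand far above the others for Isg15 and Ifit1.

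The number of calls depended in part on a few libraries together and on the mouse. With any 1 library left out, 7 to 11 genes passed. The undivided tumours numbered above 10 (M15, M17 and M18) were not left out together. Their mean log2 deviations from the median of 63 libraries were 1.20, 1.59 and 1.18 over the immunoproteasome genes. Over the class I molecules they were 1.16, 1.56 and 0.32. A further alternative, chosen after seeing the data, left out the 3 libraries that were high for 10 or more genes (M2, M5 and minor clone M29). There 2 of 40 genes passed, *H2-Q2* (0.91, limma adjusted p = 0.0345) and *Psmb10* (0.39, limma adjusted p = 0.0483), while calls over all genes went from 610 to 89. Still 39 of 40 were higher in undivided tumours, with a median of 0.41. An unadjusted limma p under 0.05 was found in 22, against 16 with all libraries, where 19.6% of all genes had one. In the male mouse alone 10 of the 40 genes passed, where 757 of all 16478 genes did. In the female mouse alone 0 of the 40 passed, where 0 of all 16372 genes did. There 3 of the 40 had an unadjusted p under 0.05 and 32 of 40 were higher (median 0.28). The log2 difference of *H2-Q2* was 1.29 in the male and 0.73 in the female mouse, and that of *B2m* 1.09 and 0.40. The difference between the mice was tested as an interaction, and 0 of 40 genes passed, as did 0% of all genes. At an unadjusted limma p under 0.05 there were 3 of 40, against 12.7% of all genes.

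Markers of other cells moved with this comparison. Of the 16 T and cytotoxic cell markers 14 were tested and 4 were higher in undivided tumours (*Cd3e* 0.94, *Gzma* 0.92, *Gzmb* 0.85, *Cd3g* 0.83), and the summed list ran over 929 to 9331 in undivided tumours and 429.6 to 3522 in minor clones. Of 10 enterocyte markers 2 were higher, among them *Sis* (1.17), with sums of 228486 to 2.02e+06 and 147472 to 1.42e+06. The epithelial marker *Cldn7* was higher (0.28), the endothelial marker *Cdh5* lower (-1.12), and 0 of the myeloid, B and plasma cell or fibroblast markers passed. These 2 genes did not speak for their lists. Of 8 epithelial markers 4 had a higher mean in undivided tumours (median 0.02), and of 6 endothelial markers 2 did (median -0.21). Of all genes 3.70% passed in this comparison. No defining T cell marker (*Cd3d*, *Cd3e*, *Cd3g*) was at 0 in any library. The part of these cells in the class I difference was not tested.

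Undivided tumours were also compared with the major clones, and this comparison shares its 23 undivided tumours with the one above. None of the 40 genes (0) passed, against 0.0121% of all 16510 genes. An unadjusted limma p under 0.05 was found in 18 of the 40, against 12% of all genes. With the segment in the fit (SI10 and SI20 only) 10 of the 40 had such a p. As before 39 of 40 had a higher mean in undivided tumours, with a median log2 difference of 0.36 against -0.01 over all genes. *B2m* had 5441, 15743 and 25954 normalised counts in major clones (lowest, median and highest), and a difference of 0.53 (standard error 0.18, limma adjusted p = 0.307). *Psmb8* had 470.1, 978 and 2149.7, and a difference of 0.58 (standard error 0.20, limma adjusted p = 0.312). Neither was separated from the undivided tumours. Beside the difference from minor clones, that from major clones was 0.52 and 1.02 (minor) for *H2-Q2*, 0.31 and 0.93 for *H2-T3*, 0.35 and 0.39 for *H2-K1*, 0.24 and 0.27 for *H2-D1*, and 0.50 and 0.47 for *Tap1*. Major and minor clones themselves are compared within tumours.

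Of the other genes, *Irf9*, which completes the ISRE complex, had the smallest p (0.35, limma adjusted p = 0.133). The log2 difference was 0.35 for *Irf1*, 0.45 for *Irf7*, 0.11 for *Stat2* and 0.32 for *Nlrc5*. It was 0.51 for *Zbp1*, 0.83 for *Isg15*, 0.57 for *Ifit1*, 0.52 for *Ifi27*, 0.29 for *Bst2*, 0.15 for *Cxcl10* and 0.63 for *Gbp2*. The interaction with the mouse gave 0 of 40 genes and 0% of all genes. At an unadjusted limma p under 0.05 there were 5 of 40, against 11.6% of all genes.

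**Figure D3:**
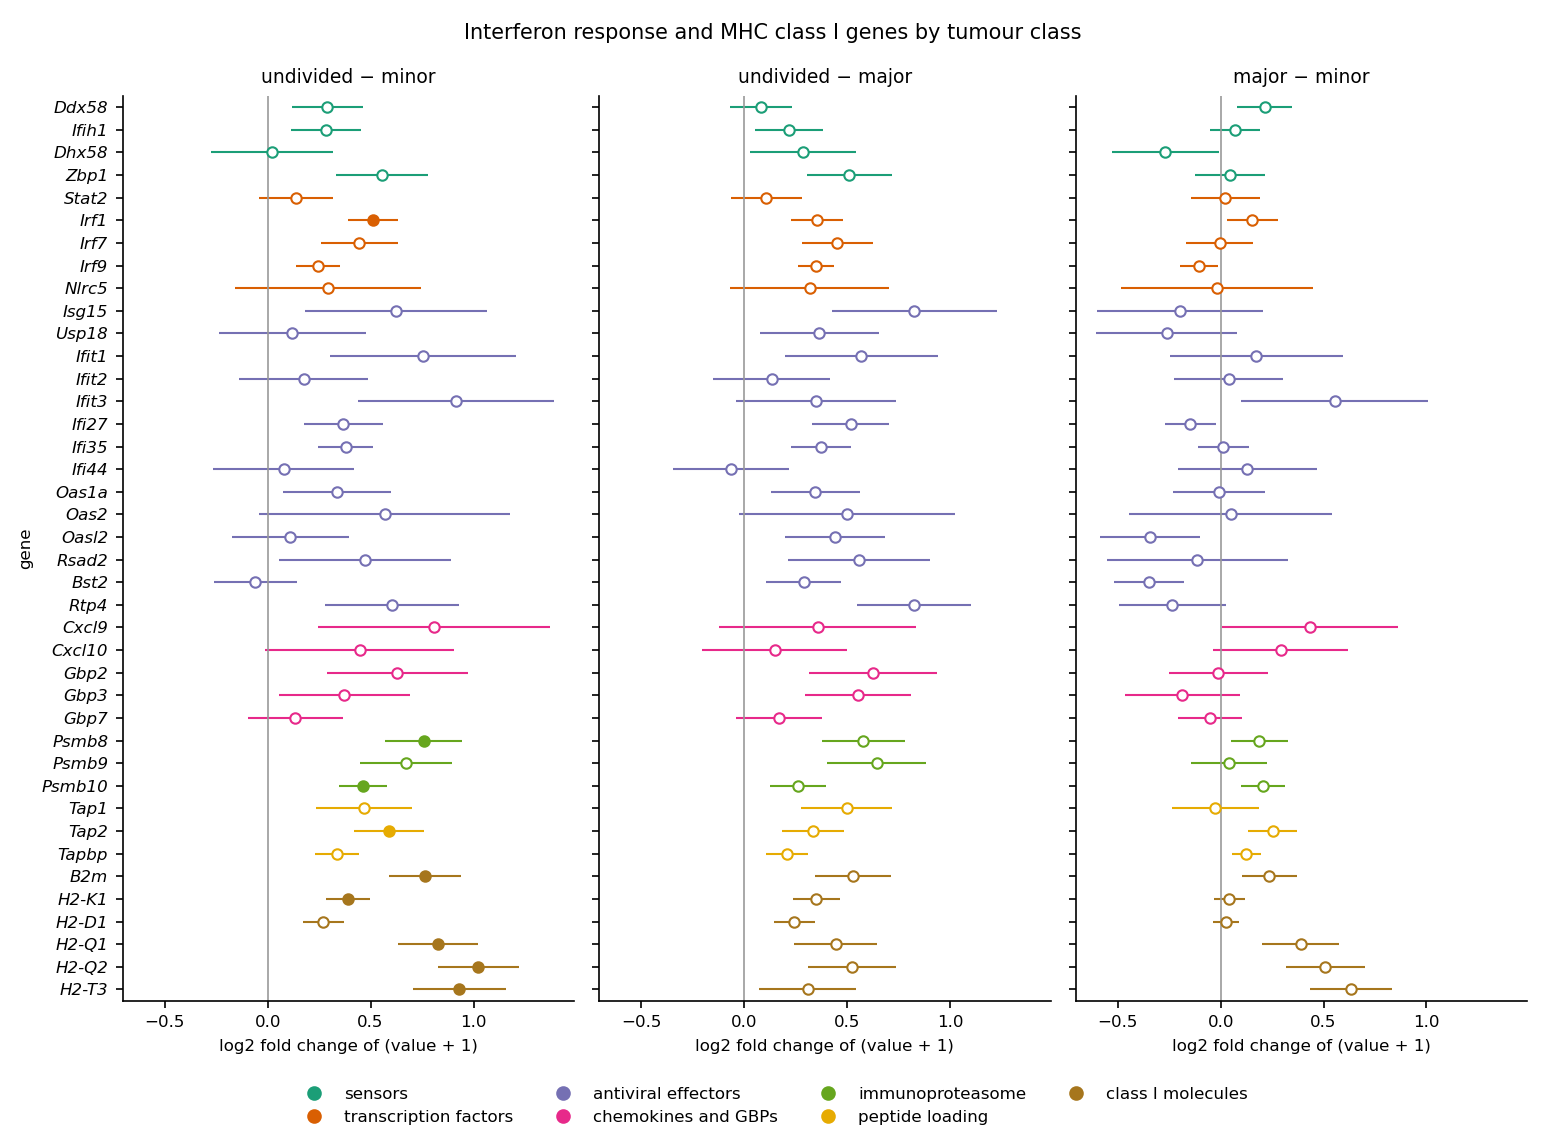
Log2 differences of 40 genes between tumour classes (points) with their standard errors (bars), coloured by role; filled points have a limma adjusted p under 0.05. The 9 filled points are all in the comparison of undivided tumours with minor clones, and 8 of them belong to the class I pathway.

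Both clones of a tumour were compared with the tumour as a block. None of the 40 genes (0) passed, against 1.14% of all 16428 genes. An unadjusted limma p under 0.05 was found in 4 of the 40, a smaller share than the 22.4% of all genes. The median log2 difference was 0.04, and 24 of 40 genes had a higher mean in major clones. All 4 belonged to the class I pathway: *H2-T3* (0.63, limma adjusted p = 0.0768), *H2-Q2* (0.51, limma adjusted p = 0.121), *H2-Q1* (0.39, limma adjusted p = 0.22) and *Tap2* (0.25, limma adjusted p = 0.211). *H2-Q2* had 1016, 6057 and 12539 normalised counts in major clones and 1711, 3924 and 9195 in minor ones. The major clone had the higher value in 14 of 20 tumours, with differences from -1.27 in F29 to 2.11 in F22. *H2-T3* and *H2-Q1* were each higher in 14 of 20 tumours. The directions therefore differed between tumours, and the highest difference of all 3 genes was in F22, whose clones carried different segment labels. Cell markers had higher means in major clones as well, in 15 of 15 myeloid markers (0 passed, 8 at an unadjusted limma p under 0.05), 6 of 7 fibroblast markers (0 and 6), 4 of 4 B and plasma cell markers (0 and 4) and 10 of 10 enterocyte markers (1 and 6, *Sis* 1.10). Of T and cytotoxic cell markers 10 of 12 had a higher mean (0 passed, 0 at an unadjusted p under 0.05). Their part in these differences was not tested.

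For antiviral genes the pairs went both ways. The difference in *Isg15* ran from -5.20 in M29 to 4.26 in M27, with a mean of -0.20 (SD 1.96, n = 20), and in *Ifit1* from -4.79 in M29 to 4.04 in M27, with a mean of 0.17 (SD 2.04, n = 20). In M29 the minor clone had 3846 normalised counts of *Isg15* and the major clone 104, while in M27 the major clone had 1285 and the minor clone 66.0. M29 gave the lowest difference of 27 of the 40 genes and M27 the highest of 19. Without the tumour M29 the median over the 40 genes was 0.15, 32 were higher in major clones and 0 passed (8 at an unadjusted p under 0.05). The limma difference was 0.15 for *Irf1*, -0.005 for *Irf7*, 0.02 for *Stat2*, -0.02 for *Nlrc5*, 0.05 for *Zbp1*, -0.15 for *Ifi27*, -0.35 for *Bst2*, 0.29 for *Cxcl10* and -0.01 for *Gbp2*. In the class I pathway it was 0.19 for *Psmb8*, -0.03 for *Tap1*, 0.24 for *B2m*, 0.04 for *H2-K1* and 0.03 for *H2-D1*. The interaction with the mouse gave 0 of 40 genes and 0% of all genes. At an unadjusted limma p under 0.05 there were 0 of 40, against 7.65% of all genes.

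**Figure D4:**
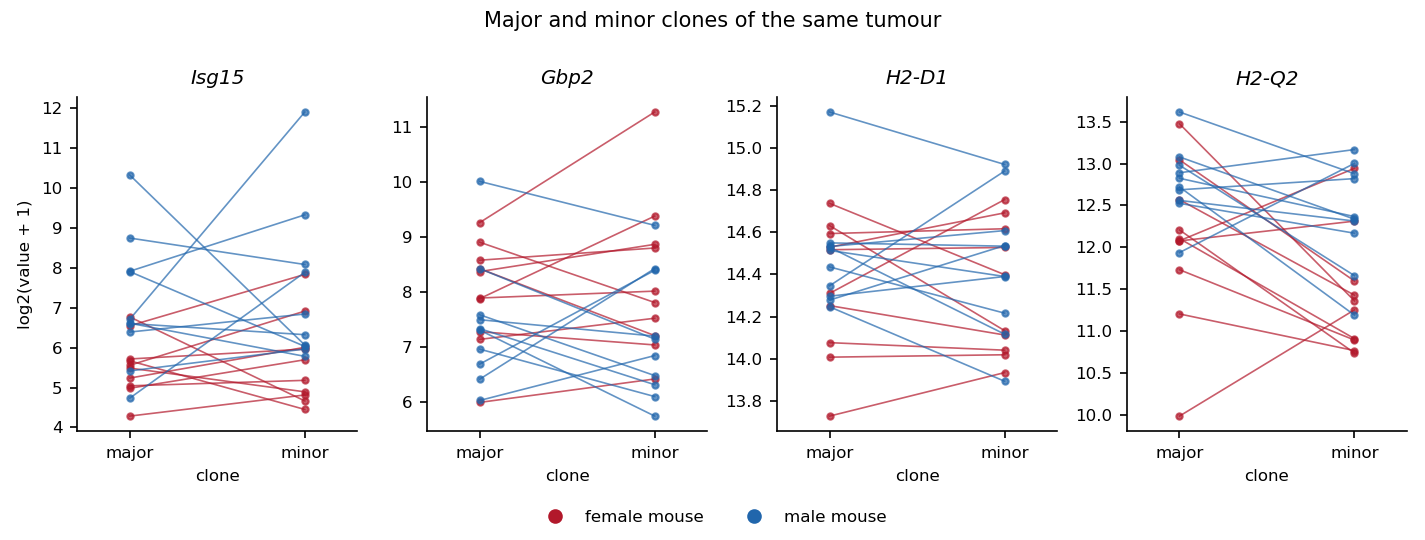
Major and minor clones of 20 tumours for 4 genes on a log2(value + 1) scale, joined by tumour (red, female mouse; blue, male mouse). Isg15 lines cross widely, from -5.20 in M29 to 4.26 in M27 (major minus minor), while H2-D1 stays within -0.55 and 0.50.

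It was then asked whether a tumour that is high in 1 clone is high in the other. With the mean of mouse and class removed, the correlation over 20 tumours passed in 0 of 40 genes, by Pearson r and by Spearman rho (5 and 3 at an unadjusted p under 0.05), against 5.22% of all 16427 genes by r (two-sided permutation test within mice, 100000 shuffles, Benjamini-Hochberg adjusted). The median r of the 40 genes was 0.09 and that of all genes 0.25. The highest was that of *H2-D1* (r 0.58, p = 0.00998, adjusted p = 0.0952, rho 0.58, p = 0.00952, adjusted p = 0.119, permutation test). It was 0.40 without the 2 tumours farthest from the median (M20 and F29), 0.64 in the female and 0.51 in the male mouse. For *Isg15* r was 0.02 and rho 0.16 (permutation p = 0.954 and 0.545, adjusted p = 0.982 and 0.773). Its r was 0.26 without M27 and M23, 0.30 in the female and -0.05 in the male mouse.

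Segments of the small intestine were compared with the mouse as a term of the fit. In undivided tumours (12 from SI10, 11 from SI20) 0 of 40 genes passed, against 0.17% of all 16511 genes. An unadjusted limma p under 0.05 was found in 11 of the 40, against 7.62% of all genes. The mean was higher in SI10 for 38 of 40 genes, with a median of 0.40 against 0.00 over all genes. *B2m* had 10539.5, 29283 and 66123 normalised counts in SI10 and 8570.1, 16847 and 28104 in SI20, with overlap, and with a difference of 0.70 (standard error 0.20, limma adjusted p = 0.268). *Psmb8* had 872, 1464 and 4228 and 616, 1152 and 2439, with a difference of 0.71 (standard error 0.25, limma adjusted p = 0.481). It was 0.44 for *Tap1*, 0.28 for *H2-K1*, 0.25 for *H2-D1*, 0.34 for *Irf1*, 0.37 for *Irf7*, 0.42 for *Stat2*, 0.29 for *Nlrc5* and 0.66 for *Zbp1*. The difference was 0.38 for *Isg15*, 0.46 for *Ifit1*, 0.52 for *Ifi27*, 0.37 for *Bst2*, -0.11 for *Cxcl10* and 0.63 for *Gbp2*. M2 and M5 both came from SI10, and without them the median fell to 0.18 and 34 of 40 genes were higher. All 15 tested T and cytotoxic cell markers also had a higher mean in SI10 (median 0.67, 0 passed, 7 at an unadjusted limma p under 0.05), as did 8 of 8 MHC class II genes (median 0.69, 0 passed, 2 at an unadjusted limma p under 0.05), and their part in the difference was not tested.

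In divided tumours with 1 segment label for both clones (7 from SI10, 10 from SI20, mean of the clones), 0 of 40 genes passed, against 0.28% of all 16436 genes. An unadjusted limma p under 0.05 was found in 10 of the 40, against 14.3% of all genes. The chemokine *Cxcl9* had the largest difference (2.46, standard error 0.61, limma adjusted p = 0.125), followed by *Gbp2* (1.46, standard error 0.37, limma adjusted p = 0.135). *Psmb8* was nearest to the threshold (0.64, standard error 0.13, limma adjusted p = 0.0553) and passed with quantile normalisation and with libraries brought to equal sums. The median was 0.25, with 29 of 40 genes higher in SI10. For the class I pathway, the difference was 0.53 for *B2m*, 0.47 for *Tap1*, 0.12 for *H2-K1* and 0.15 for *H2-D1*. For the other genes it was 0.31 for *Irf1*, -0.04 for *Irf7*, -0.06 for *Stat2*, 0.53 for *Nlrc5*, 0.66 for *Zbp1*, -0.26 for *Isg15*, -0.22 for *Ifit1*, 0.40 for *Ifi27*, 0.38 for *Bst2* and 0.77 for *Cxcl10*. Of 8 MHC class II genes, all with a higher mean in SI10 (median 0.84), 1 passed (*H2-DMb1* 1.10) and 6 had an unadjusted limma p under 0.05. Of T and cytotoxic cell markers 11 of 12 had a higher mean in SI10, and 12 of 15 myeloid markers did (0 passed in either list, 3 and 6 at an unadjusted limma p under 0.05). Their part in the segment difference was not tested.

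Tumours of the 2 mice were compared next. Among undivided tumours, with the segment in the fit, 22 of 40 genes passed (limma, Benjamini-Hochberg), against 19.1% of all 16511 genes, and all 22 were lower in the female mouse, as were 10.3% of all genes. The median log2 difference of the 40 genes (female minus male) was -0.82, against 0.05 over all genes. Those that passed were 2 of 4 sensors, 3 of 5 transcription factors, 9 of 14 antiviral effectors, 2 of 3 immunoproteasome subunits, 1 of 3 peptide loading genes and 5 of 6 class I molecules. Equal library sums moved the median of all genes to 0.25 and that of the 40 genes to -0.62, and 18 of the 22 still passed. The share of all calls that were higher in the female mouse went from 46.2% to 77.9%.

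*Ifit1* had 46.7, 157 and 753 normalised counts in the female and 155, 466 and 6069 in the male mouse (lowest, median and highest), overlapping, with a log2 difference of -1.87 (standard error 0.51, limma adjusted p = 0.014). *Isg15* had 36.2, 57.3 and 328 and 66.2, 200.0 and 4882, with -1.80 (standard error 0.58, limma adjusted p = 0.0323). M2 was the highest male tumour for both. *H2-Q2* had 2348, 4360.1 and 8585 in the female and 6801, 13670.0 and 30596 in the male mouse, with -1.51 (standard error 0.24, limma adjusted p = 0.000174). For *B2m* they were 8570.1, 12625 and 27891 and 13368, 28104 and 66123, with -1.16 (standard error 0.20, limma adjusted p = 0.000499). *Ifi35*, an interferon-induced regulator of innate signalling, had 666, 935 and 1379 in female and 1327, 1718 and 5199.8 in male tumours, with -1.08 (standard error 0.19, limma adjusted p = 0.000469). The ranges overlapped in all 5 genes, with the male median above the female one.

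The remaining genes that passed were lower in the female mouse as follows. The sensors of double-stranded RNA, *Ifih1* and *Ddx58*, had log2 differences of -1.02 and -0.71, and the transcription factors *Irf7*, *Stat2* and *Irf1* -1.12, -0.996 and -0.67. Among antiviral effectors the difference was -1.85 for *Ifit3*, -1.71 for *Rsad2* (viperin, an inhibitor of viral replication), -1.64 for *Oasl2*, -1.28 for *Ifi44*, -1.14 for *Ifi27* and -1.02 for *Oas1a*, which like *Oas2* senses double-stranded RNA. In the class I pathway it was -1.74 for *H2-T3*, -1.30 for *H2-Q1*, -0.84 for *H2-K1*, -0.80 for *Psmb8*, -0.61 for *Psmb10* and -0.41 for *Tapbp*. *H2-D1* (-0.33), *Tap1* (-0.33), *Zbp1* (-0.10), *Bst2* (-0.36), which tethers budding virus to the cell, and *Nlrc5* (0.18) did not pass.

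Chemokines and GBPs had differences of the other sign. All 5 had a higher mean in the female mouse and 0 passed, with 3 at an unadjusted limma p under 0.05. *Cxcl9* had 5.20, 235 and 708 normalised counts in female and 11.1, 59.0 and 201 in male tumours, with a log2 difference of 1.63 (standard error 0.62, limma adjusted p = 0.0664). *Cxcl10* had 11.9, 34.4 and 95.4 and 0.760, 15.04 and 45.9, with 1.32 (standard error 0.54, limma adjusted p = 0.0867). The mice overlapped widely in both. *Gbp2* had 0.95 (standard error 0.41, limma adjusted p = 0.101). With libraries brought to equal sums these 3 genes passed as higher in the female mouse (limma adjusted p = 0.0339, 0.0394 and 0.0429). That setting moved the median of all genes to 0.25. There 4357 of all 16543 genes passed, and 77.9% of these were higher in the female mouse.

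In divided tumours (7 of the female and 10 of the male mouse, mean of both clones), 11 of 40 genes passed, against 13.1% of all 16436 genes, and all 11 were lower in the female mouse, as were 5.87% of all genes. The median log2 difference of the 40 genes was -0.43, against 0.01 over all genes. By role these were 6 of 14 antiviral effectors, 3 of 6 class I molecules (*H2-Q2*, *H2-Q1* and *H2-K1*), 1 sensor (*Ifih1*) and 1 transcription factor (*Irf7*), and 0 of 6 immunoproteasome and peptide loading genes. Undivided and divided tumours are different tumours of the same 2 animals, and 10 of the 40 genes passed in both. The overlap over all genes was not counted, where 19.1% passed in undivided and 13.1% in divided tumours. Whether the overlap is particular to the 40 genes is therefore not shown. The log2 difference was -0.63 (standard error 0.11, limma adjusted p = 0.00264) for *Ifi35*, -1.20 (standard error 0.26, limma adjusted p = 0.00833) for *Oasl2* and -0.76 (standard error 0.21, limma adjusted p = 0.0288) for *H2-Q2*. It was -0.80 for *Ifih1*, -0.69 for *Irf7*, -0.92 for *Ifi27*, -1.10 for *Ifi44*, -0.76 for *Oas1a*, -0.50 for *H2-K1* and -0.70 for *H2-Q1*. *Rtp4*, a chaperone of receptors that interferon induces, passed here (-1.21, standard error 0.34, limma adjusted p = 0.0278) and had -1.07 (standard error 0.41, limma adjusted p = 0.0698) in undivided tumours.

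The other genes did not pass in divided tumours. Their difference was -1.45 for *Isg15* (limma adjusted p = 0.0606), -1.26 for *Ifit1*, -0.37 for *Bst2*, 0.31 for *Zbp1*, -0.35 for *Irf1*, -0.44 for *Stat2* and 1.03 for *Nlrc5*. It was -0.18 for *Cxcl10*, 0.65 for *Gbp2*, -0.14 for *Psmb8*, -0.18 for *Tap1*, -0.43 for *B2m* (limma adjusted p = 0.0548) and -0.07 for *H2-D1*. Without F27 or without F28 the number called was 6 or 7, and without the tumour M29 it was 9.

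**Figure D5:**
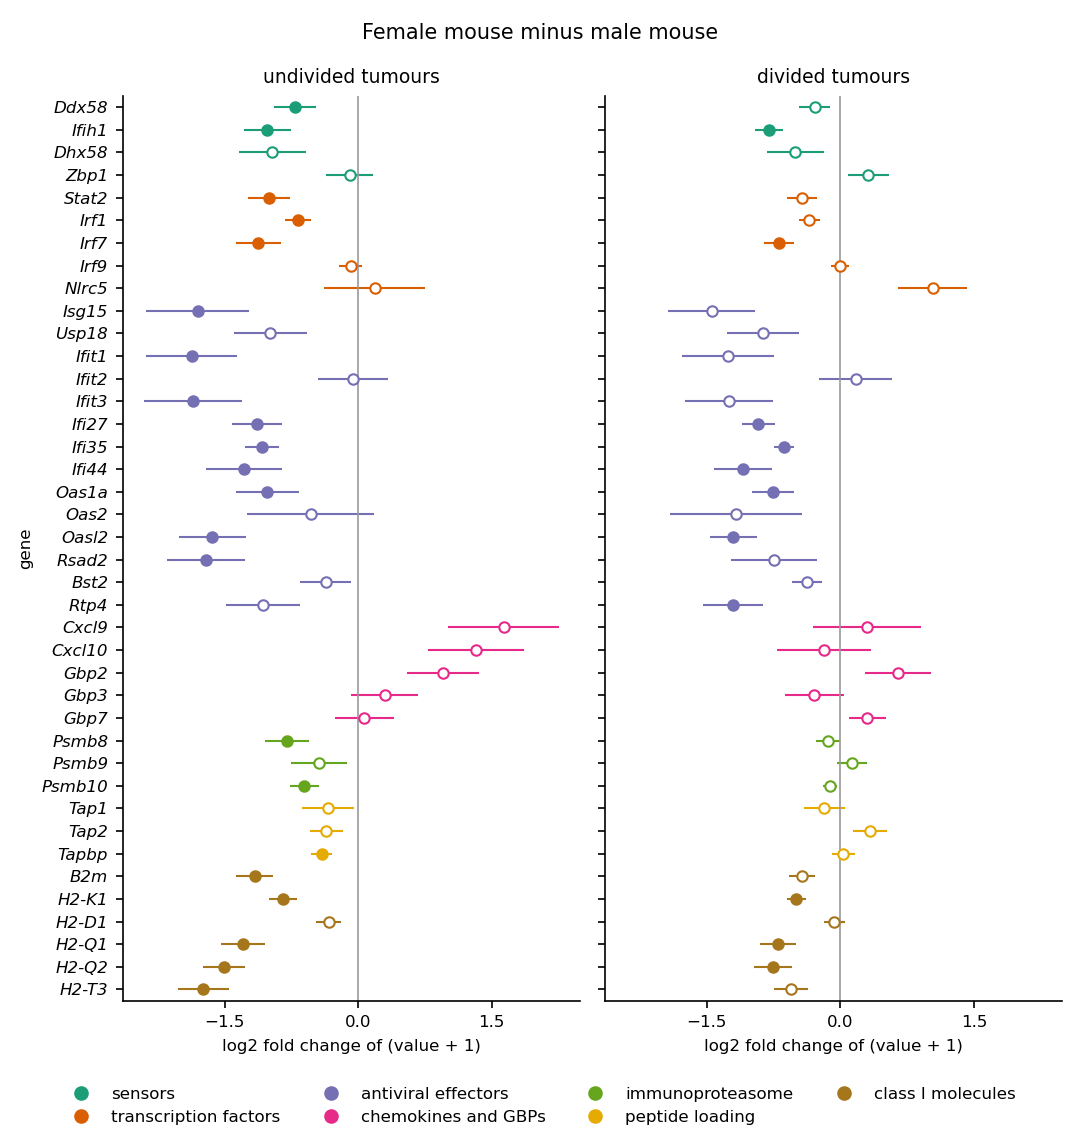
Log2 differences between the female and the male mouse for 40 genes in undivided (left) and divided tumours (right), with standard errors (bars), coloured by role; filled points have a limma adjusted p under 0.05. The 22 filled points on the left and the 11 on the right all lie below 0, while the chemokines and GBPs on the left lie above 0 and are open.

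Cell markers moved with the mouse as well. In undivided tumours 19.1% of all genes passed, and 10.3% passed as lower in the female mouse. There 6 of 15 tested T and cytotoxic cell markers passed as lower (*Cd8a* -1.31, *Ccl5* -1.59), while 4 of the 15 had a higher mean in the female mouse. The summed list ran over 929 to 6028 in female and 1282 to 9331 in male tumours. Of 10 enterocyte markers 7 were lower (*Fabp2* -1.66), with sums of 228486 to 1.01e+06 and 635902 to 2.02e+06. In contrast 5 of 6 endothelial markers were higher in the female mouse (*Cldn5* 2.14, sums 3252 to 10158 and 632 to 7630.0), as were 3 of 16 myeloid markers (*S100a8* 2.84). In divided tumours, where 13.1% of all genes passed, 4 of 10 enterocyte markers were lower and 4 of 4 tested B and plasma cell markers higher. Of 12 T cell markers 0 passed there. The part of these cells in the mouse difference was not tested.

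Genes around the set were taken from lists. Of 10 interferon genes 3 were in the table and none had a mean of 10: *Ifng* was listed at 0 in 41 libraries and *Ifnk* in 48, and *Ifne* had a median of 4.16 normalised counts. Of 11 receptors, kinases and feedback inhibitors, 0 passed between undivided tumours and minor or major clones (1 and 1 at an unadjusted limma p under 0.05). Between the mice, in undivided tumours, the inhibitors of receptor signalling *Socs1* (1.56, standard error 0.29, limma adjusted p = 0.000785) and *Socs3* (1.66, standard error 0.36, limma adjusted p = 0.00287) were higher in the female mouse and the receptor chains *Ifngr2* (-0.45), *Il10rb* (-0.47) and *Ifnar2* (-0.29) lower. In divided tumours *Socs1* (1.25), *Socs3* (0.88) and *Ifngr1* (0.38) were higher and *Ifngr2* lower (-0.32).

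A list of 47 other interferon response genes gave 0 of 43 called between undivided tumours and minor clones (14 at an unadjusted limma p under 0.05), with 40 higher and a median of 0.36. Between the mice in undivided tumours 4 of 44 were higher in the female mouse (*Iigp1* 1.97, *Tgtp1* 1.86, *Gbp5* 1.33, *Sting1* 1.12) and 10 lower, among them *Oas3* (-2.08), *Cmpk2* (-1.44), *Herc6* (-1.48) and *Ido1* (-1.64). The first 3 are GTPases of the immunity-related and guanylate-binding families, as is *Gbp2*. Of all genes 19.1% passed between the mice in undivided tumours, and 10.3% passed as lower in the female mouse. In divided tumours 2 of 42 were higher and 5 lower, where 13.1% of all genes passed and 5.87% passed as lower. Of other class I pathway genes, *Psme2*, a subunit of the proteasome activator, was higher in undivided tumours than in minor clones (0.36) and *Pdia3*, a peptide loading chaperone, lower (-0.23), of 18 tested. Between the mice 5 of 19 were lower in the female mouse in undivided tumours (*H2-T23* -0.79, *Psme1* -0.61) and 1 higher (*Canx* 0.26). Of 8 MHC class II genes, which present peptides to helper T cells, 0 passed between undivided tumours and minor clones (7 at an unadjusted limma p under 0.05) or between the clones of a tumour (7).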

How the data were processed

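PolyA RNA of microdissected tumours was sequenced (Illumina Stranded mRNA), and libraries of low RNA integrity were removed by the authors. Each gene has a deposited signal in each library, for which the authors trimmed reads (FastQC 0.11.9, Trimmomatic 0.39), checked alignments (STAR 2.7.7a, Picard 2.27.3) and estimated expression with Salmon 1.9.0 on Gencode M30. DESeq2 is among their tools, and the scaling step is not described further in the sources used here. Values are normalised counts and not whole, and depth is unknown. There were 0 columns of other samples.

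Gene positions and promoters here are from Gencode M39 (GRCm39). Undivided tumours are those without a clone letter. The class of each clone was taken by library title from the study's source data. Genes with a mean of at least 10 in the libraries of a comparison were tested as log2(value + 1) with limma (trend), with the mouse as a term for tumour classes, the tumour as a block for clones, and mouse and segment together for the other comparisons. Adjusted p-values are Benjamini-Hochberg over all genes tested (threshold 0.05). Clone relations used 100000 permutations within mice. In the 20 pairs the clones of a tumour come from the same animal, and their deviations correlated by 0.0253 to 0.618 (median 0.262, 17 of 20 above 0.1, other tumours -0.0160).

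Genes, roles and lists (interferon ligands, receptors and kinases, other interferon response and class I genes, MHC class II, and markers of epithelium, enterocytes, T, myeloid, B, endothelial cells and fibroblasts) were chosen with earlier results of these data known. Named with values were all members with an adjusted p under 0.05, 16 members in every comparison, libraries high (log2 at least 2 above the median) for 5 or more members, and list genes that passed or define a cell type (1 list gene is not reported here). Members named in a comparison outside this rule (such as *Psmb9*, *Tapbp*, *Irf9* and *Cxcl9*) were chosen after their values were seen.

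Alternatives were other pseudocounts, filters, quantile normalisation and equal library sums, limma without trend, 1 mouse alone, a segment term, no block, each library left out and, added after seeing the data, the libraries high for 10 or more members left out. The scripts were tested on simulated data. Python 3.11.15, pandas 2.3.3, numpy 2.4.6, scipy 1.17.1, matplotlib 3.10.9, R 4.3.3, limma 3.58.1 and data.table (1.17.8) were used.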

Additional observations from a re-analysis of the deposited data

Results flagged for a closer look

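For each gene, and for the mean deviation over the 40 genes, the 10 libraries of 1 class in 1 mouse were searched for a single library far from the other 9 (gap over range, Dixon's test). This picked 11 of 205 sets, and chance alone gives about 1 in 20. The 13 undivided tumours of the male mouse, M2 and M5 among them, were not searched, as that set was larger than 10. The minor clone M29 had 1854 normalised counts of *Ddx58* (others 373 to 746), 3743 of *Ifih1* (others 915 to 1864) and 6087 of *Irf7* (others 1342 to 2681). The major clone F22 had 1939 of *Ifi35* (others 601 to 1059) and 4069 of *Psmb10* (others 1494 to 2525). *H2-D1* was at 36908 in the major clone M20 (others 19433 to 23984), and *H2-K1* at 26477 in the minor clone F23 (others 12199 to 17816). *Bst2* was at 431 in the minor clone F20 (others 137 to 236). The values were low in *Irf1* in the minor clone M26 (976, others 1644 to 2437), in *Ifi27* in undivided tumour F10 (104, others 203 to 431) and in *Cxcl9* in undivided tumour F9 (5.20, others 113 to 708).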

How the results depend on the processing

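Depth and RNA integrity per library were not given in the sources used here, each sex was 1 mouse, and cutting a tumour into clones cannot be told apart from its class. Of 253 alternative counts, 244 were within 1.5 times the reported number and none of the fold changes of called members reversed. A count of 0 beside a reported 0 was taken as within it. This was so in every alternative for undivided tumours against major clones, for the clones of a tumour, and for segments in undivided tumours. The total therefore says little about how stable the calls were. Of undivided tumours against minor clones, 0 members passed in the female mouse alone and 2 without the libraries high for 10 or more members, and leaving out 1 library gave 7 to 11. Between segments in divided tumours 1 passed (*Psmb8*) with quantile normalisation and 1 (*Psmb8*) with equal library sums, and leaving out 1 tumour gave 0 to 2 (2 without F23, 1 without F24, 1 without M19). Between the mice, leaving out 1 library gave 16 to 25 in undivided tumours, and leaving out 1 tumour 6 (F27), 7 (F28) to 13 in divided ones. All other comparisons gave 0 throughout. Without the pairing of clones by tumour (no replicate block) 0 members passed, as with it, and the calls over all genes went from 188 to 1. Calls over all genes, over these settings and over single libraries left out, respectively, were 0 to 366 and 25 to 859 between major and minor clones (188 reported), 0 to 757 and 274 to 959 between undivided tumours and minor clones (610), 0 to 2 and 0 to 25 for major clones (2), 0 to 33 and 5 to 53 between segments in undivided tumours (28), 34 to 52 and 13 to 215 in divided ones (46), 2228 to 4357 and 2307 to 3654 between the mice in undivided tumours (3154) and 1802 to 2322 and 1233 to 2672 in divided ones (2145). The cause was not tested.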
